A study of Homo sapiens with 9 samples.

Results

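The genes described here make up the core of the apoptosis machinery: the BCL2 family, the caspases, the death receptors with their adaptors, and the inhibitor of apoptosis proteins. The list holds 37 genes, given by name. Of these, 36 had at least 1 probe set with a single gene symbol, among 18132 genes on the arrays, and 33 were bright enough to be tested, among 12239 genes. BIRC3 was not analysed here. BCL2A1, TNFRSF10C and TNFSF10 had only dim probe sets and entered no test.

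Messenger RNA was measured on 9 Affymetrix 3' expression arrays of human hepatoma cells, in 3 groups of 3 arrays. After a night without serum, cells received biomineralized insulin (BI), soluble insulin or plain medium for 4 h, with insulin at 40 ug/ml in both preparations. The protocols name R-HepG2, an insulin-resistant form of HepG2, for every group, while the cell line tag reads HepG2 for both treated groups and R-HepG2 for the medium group, so a difference of line cannot be told apart from treatment in comparisons with medium. No group received the mineral without insulin, and whether the arrays of a group stand for different cultures is not stated. The p-values therefore rest on the spread among these arrays, which may be technical.

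Apoptosis runs along 2 connected routes. In the receptor route, a ligand such as TRAIL clusters death receptors, whose adaptor FADD recruits caspase 8, while decoy receptors bind the ligand without passing the signal on. In the mitochondrial route, BH3-only proteins neutralise survival members of the BCL2 family or activate BAX and BAK, cytochrome c leaves the mitochondria, and APAF1 activates caspase 9, a step held back further down by XIAP and released by DIABLO.

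The deposited values are log2 expression per probe set, and every level or difference below is on that scale. Array medians lay between 5.46 and 5.50, and arrays of different groups correlated at 0.992 to 0.998 across probe sets, against 0.998 within a group. The labelled hepatoma identity was not borne out by its defining markers: ALB averaged 3.41 on BI arrays, 3.49 on insulin arrays and 3.28 on medium arrays, AFP averaged 2.93 on BI arrays, 2.87 on insulin arrays and 3.00 on medium arrays, and APOB 2.70 on BI arrays, 2.77 on insulin arrays and 2.88 on medium arrays, while the array's background features had a median of 2.99. Of 13 hepatocyte markers measured, 4 lay above the brightness filter, and their summed level ranged from 52.3 to 53.3 on BI arrays, from 52.3 to 53.2 on insulin arrays and from 52.2 to 53.3 on medium arrays. Of the other marker lists, lung epithelium genes had 4 of 7 above the filter and summed to 34.3 to 34.8 on BI arrays, 33.5 to 33.8 on insulin arrays and 32.9 to 33.9 on medium arrays. Leukocyte genes had 2 of 5 above it, endothelial genes 4 of 4 and fibroblast genes 5 of 7, with sums that overlapped between groups. PTPRC, the defining leukocyte gene, averaged 2.75 on BI arrays, 2.74 on insulin arrays and 2.81 on medium arrays, and the part of these lists in the results was not tested. The poly-A spike-ins, bacterial transcripts added to the RNA, read 7.50, 7.80 and 7.57 on the BI arrays, against 7.25, 7.21 and 7.25 on insulin arrays and 7.16, 7.20 and 7.29 on medium arrays. Centring the arrays on these spike-ins moved the median change of all genes to -0.38 in BI against medium and to -0.37 in BI against insulin, so each gene-level rise below that is lost on that scale is given with its value there. In bulk RNA, fewer cells of a type and less RNA per cell cannot be told apart.

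On the deposited scale, though not with spike-in centring, the members called with BI were divided between higher and lower. Against medium, 22 of the 33 tested members passed an adjusted p of 0.05 (limma, Benjamini-Hochberg over all tested genes), a share of 66.7%, where 50.9% of all genes did. Of the 33, 10 were higher (30.3%), against a background of 25.7%, and 12 were lower (36.4%), against a background of 25.2%. Against soluble insulin, 19 members passed (57.6%), against a background of 44.4%. Of the 33, 7 were higher (21.2%, background 21.1%) and 12 lower (36.4%, background 23.3%). The median change of the members was -0.0035 against medium and 0.03 against insulin, beside 0.02 in both for all genes, and the median size of change was 0.23 and 0.19, beside 0.16 and 0.13 for all genes. The same 12 members were lower in both comparisons and 6 were higher in both. BCL2, BAX, BOK and APAF1 (4 members) were called higher against medium and not against insulin, and 1 (TNFRSF10A) against insulin and not against medium, while 10 were called in neither. The difference between these comparisons is that of insulin against medium, in which none of them was called. Both comparisons use the same BI arrays, so they are not independent. Where a pair of changes is given below with no comparison named, the first is BI against medium and the second BI against insulin.

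With arrays centred on the spike-ins, the split of the 33 tested members against medium was 2 higher and 24 lower, and against insulin 1 higher and 25 lower. Over all genes, that scale gave 2.23% higher and 74.5% lower against medium, and 1.35% higher and 77.2% lower against insulin. A change of at least 1.5-fold was rarer. Against medium 4 of the 33 tested members reached it (TNFRSF10D, CASP1, CASP9 and HRK), where 7.11% of all genes did. Against insulin 2 of the 33 did (TNFRSF10D and CASP9), where 5.2% of all genes did. CASP1 averaged 4.74 on insulin arrays and 4.39 on medium arrays, both below the filter (4.743), and passed it only through its level on the BI arrays. Without CASP1 the counts were 21 of 32 against medium and 18 of 32 against insulin.

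**Figure D1:**
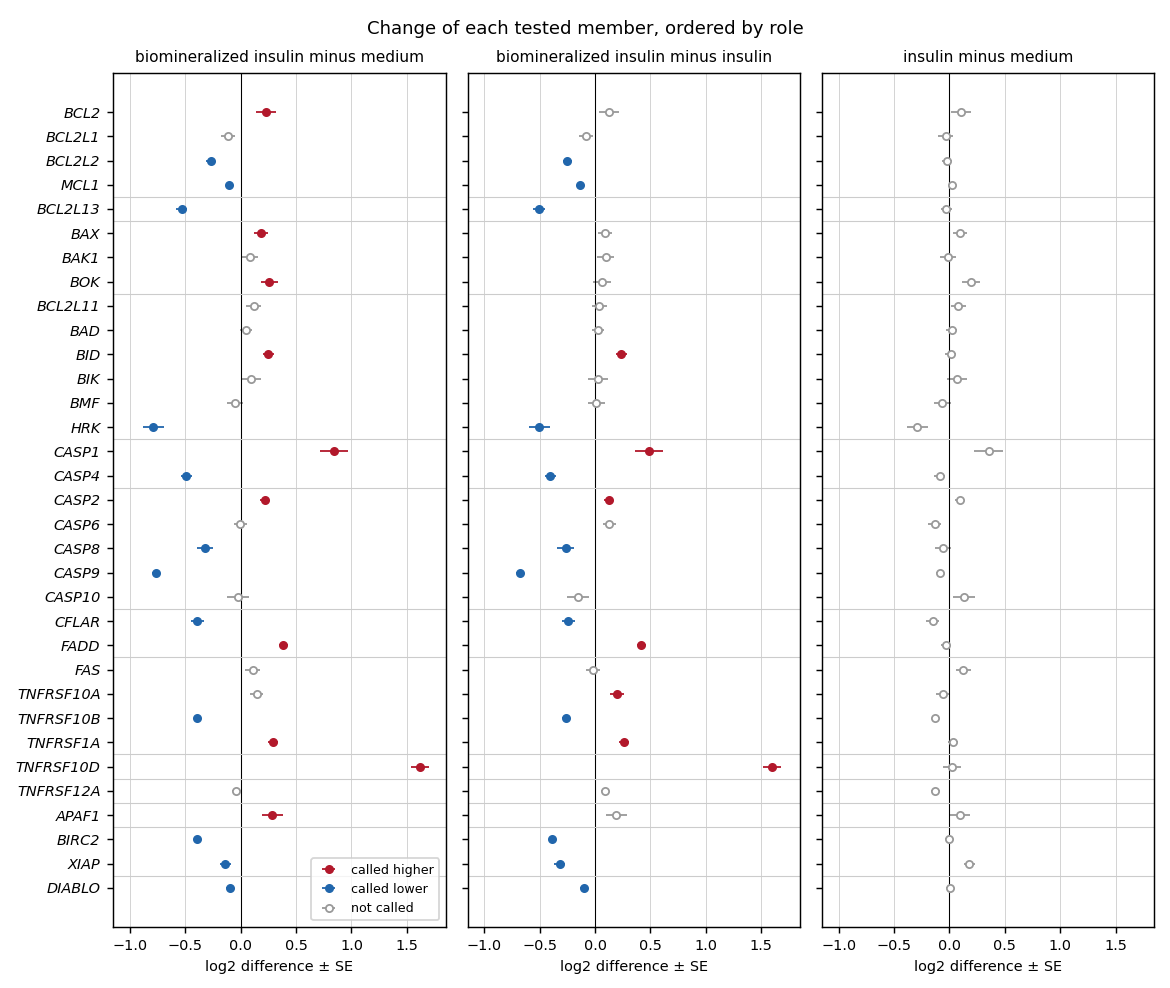
Log2 difference (horizontal axis) with its standard error for each of the 33 tested members, in rows ordered by role, for BI minus medium, BI minus insulin and insulin minus medium (3 arrays each). Filled points passed an adjusted p of 0.05 (limma); TNFRSF10D stands alone on the right at 1.62 and 1.60, CASP9 and HRK lie farthest left against medium and CASP9 against insulin, and the panel of insulin minus medium holds no filled point.

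TNFRSF10D, the gene of a decoy receptor for TRAIL whose death domain is truncated, had the largest change of any member. Its brighter probe set read 8.26, 8.36 and 8.33 on BI arrays, against 6.65, 6.70 and 6.81 on insulin arrays and 6.88, 6.52 and 6.70 on medium arrays. All 3 BI arrays stood well above the other 6, which overlapped. It rose by 1.62 ± 0.08 (SE) against medium, a 3.07-fold difference (limma adjusted p = 6.8e-11), and by 1.60 ± 0.08 against insulin, 3.02-fold (adjusted p = 1.2e-10). Of the 10 and 7 members that rose, TNFRSF10D was the single one still called higher in both comparisons with spike-in centring, at 1.21 in each.

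The second TNFRSF10D probe set did not show this. It read 5.02, 4.87 and 5.18 on BI arrays, 4.64, 5.04 and 4.75 on insulin arrays and 4.95, 4.95 and 4.95 on medium arrays, so that the groups overlapped. Its difference was 0.07 against medium (limma over all probe sets, adjusted p = 0.63) and 0.22 against insulin (adjusted p = 0.14). The mean of both probe sets gave 0.85 and 0.91, still called. The 2 probe sets lay 1.55 apart in their change against medium, the widest gap between the bright probe sets of any member, and no source used here says which transcripts each one detects.

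TNFRSF10B, which encodes DR5, a TRAIL receptor with a complete death domain, moved the other way. Its brightest probe set read 10.65, 10.63 and 10.63 on BI arrays, 10.94, 10.90 and 10.87 on insulin arrays and 11.06, 11.04 and 10.99 on medium arrays. The 3 groups did not overlap, with BI lowest and medium highest. It fell by 0.39 ± 0.03 against medium (limma adjusted p = 4.8e-08) and by 0.27 ± 0.03 against insulin (adjusted p = 5.5e-06), and its other 2 bright probe sets fell further, by 0.69 and 0.72 against medium and both by 0.62 against insulin. The gene was among those chosen for array values after the changes were seen.

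TNFRSF10A, the gene of the other death-domain receptor for TRAIL (DR4), rose by 0.20 ± 0.06 against insulin (adjusted p = 0.013) and was 0.14 above medium without passing (adjusted p = 0.059). With spike-in centring it was at -0.26 against medium and -0.19 against insulin. Without insulin array 2 its difference from insulin was 0.15 and short of the threshold while that from medium passed. TNFRSF1A, which encodes the main receptor for tumour necrosis factor, rose by 0.29 ± 0.05 against medium and 0.26 ± 0.05 against insulin (adjusted p = 4.1e-05 and 0.00015), values that became -0.11 and -0.12 with spike-in centring. Of its 4 bright probe sets, 2 were called higher against medium and 1 against insulin, and the single one that is not prone to cross-hybridization read -0.06 and -0.03. FAS, the receptor for FAS ligand, was not called, at 0.11 against medium and -0.02 against insulin. With spike-in centring FAS was called lower in both comparisons, at -0.30 and -0.40. TNFRSF12A, a receptor without a death domain, was not called either, at -0.04 and 0.09, although without BI array 2 the difference from insulin read 0.11 and passed. With spike-in centring TNFRSF12A was called lower in both comparisons, at -0.44 and -0.30.

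TNFSF10, the gene of TRAIL itself, was dim on all 3 of its probe sets and was tested only with no brightness filter. On 1 of them, picked after its values were seen, the readings were 3.60, 3.53 and 3.60 on BI arrays, 4.04, 3.82 and 3.93 on insulin arrays and 3.48, 3.60 and 3.32 on medium arrays. The insulin arrays stood above all others on this probe set. In the fit of all probe sets the difference was -0.35 in BI against insulin (limma adjusted p = 0.012) and 0.46 in insulin against medium (adjusted p = 0.045), while the other 2 probe sets passed in no comparison. TNFRSF10C, a decoy receptor anchored to the membrane by a lipid, and BCL2A1, a survival member of the BCL2 family, had no called probe set even without the filter.

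**Figure D2:**
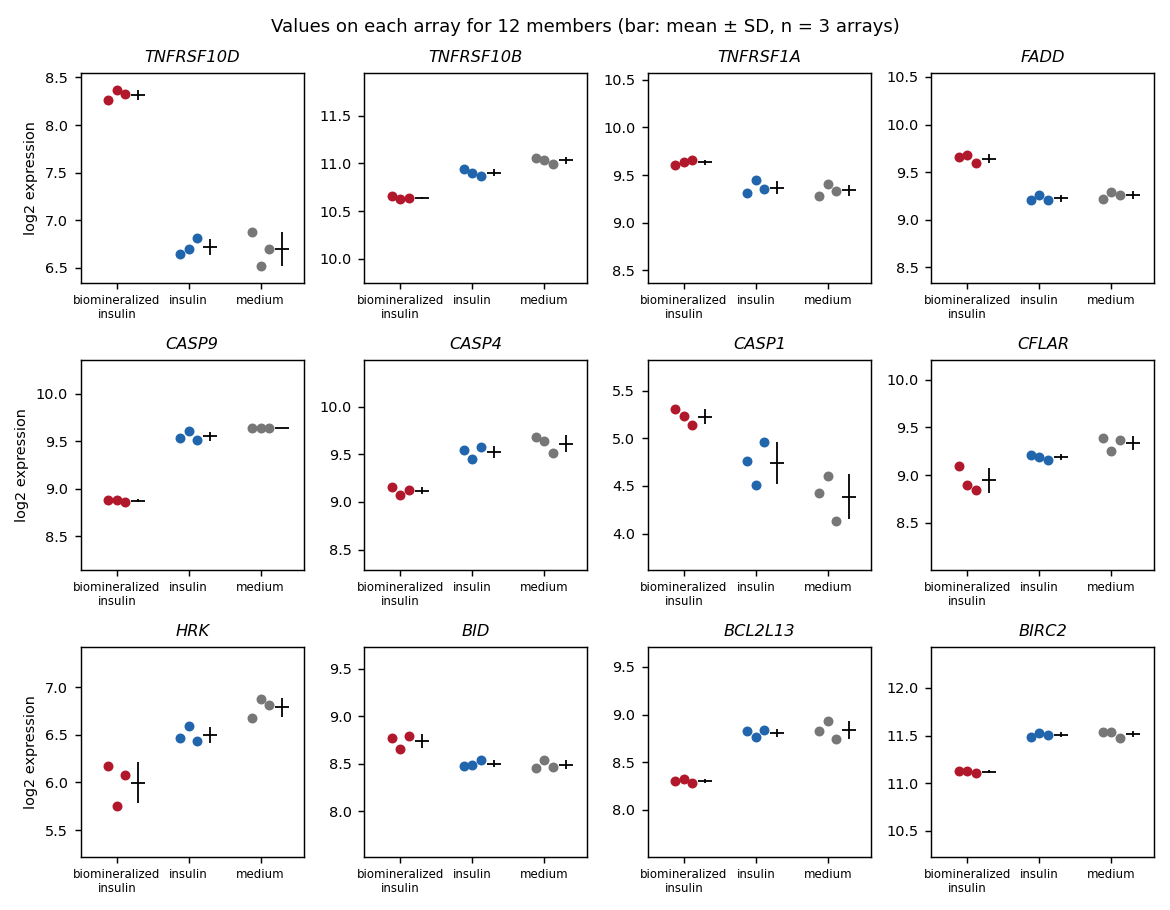
Log2 expression on each array (points) with mean ± SD beside them (n = 3 arrays) for 12 members chosen after their values were seen, all panels spanning the same number of log2 units. The BI arrays lie above the other 6 for TNFRSF10D, TNFRSF1A, FADD, CASP1 and BID, and below them for the other 7 genes.

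Downstream of the receptors, the adaptor rose while caspase 8 and its regulator fell. FADD, the adaptor that links death receptors to caspase 8, read 9.66, 9.68 and 9.59 on BI arrays, 9.21, 9.27 and 9.20 on insulin arrays and 9.22, 9.30 and 9.26 on medium arrays. All BI arrays were higher than the others, which overlapped. FADD rose by 0.38 ± 0.04 against medium and 0.42 ± 0.04 against insulin (limma adjusted p = 8.1e-07 and 4.2e-07), and both of its bright probe sets were called, but with spike-in centring the differences were -0.02 and 0.03 and neither passed.

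CASP8, the initiator caspase of the receptor route, read 7.80, 8.09 and 7.95 on BI arrays, 8.24, 8.18 and 8.21 on insulin arrays and 8.37, 8.32 and 8.11 on medium arrays. Its BI values spread more than those of the insulin group, and the highest of them, on array 2, lay just under the lowest medium value. CASP8 fell by 0.32 ± 0.07 and 0.27 ± 0.07 (adjusted p = 0.0015 and 0.0073), on 1 of its 4 bright probe sets. The call against insulin was lost without BI array 1, at -0.19. Leaving out cross-hybridizing probe sets gave -0.10 and -0.14, and averaging the probe sets -0.13 and -0.14, all short of the threshold.

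CFLAR, which encodes FLIP, a catalytically inactive relative of caspase 8 that blocks its activation, read 9.10, 8.90 and 8.84 on BI arrays, 9.21, 9.19 and 9.15 on insulin arrays and 9.39, 9.26 and 9.36 on medium arrays. The groups did not overlap, with BI lowest. CFLAR fell by 0.39 ± 0.06 and 0.24 ± 0.06 (adjusted p = 2.9e-05 and 0.0027). Its 3 brightest probe sets were called lower in both comparisons and the dimmer 3 in neither. The 6 bright probe sets ranged from -0.48 to 0.13 against medium and from -0.36 to 0.14 against insulin. The mean of all 6 against insulin was -0.12 and short of the threshold. CASP10, the other initiator of this route, was not called, at -0.02 and -0.16. With spike-in centring CASP10 was called lower in both comparisons, at -0.42 and -0.54. The array values of FADD, CASP8 and CFLAR were chosen after the changes were seen.

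Among the survival proteins of the BCL2 family, BCL2L2 (BCL-w) was the clearest change. It read 9.27, 9.18 and 9.20 on BI arrays, 9.49, 9.47 and 9.43 on insulin arrays and 9.54, 9.48 and 9.43 on medium arrays, values given after the change was seen. Each BI array lay below each of the others. It fell by 0.27 ± 0.04 against medium and by 0.25 ± 0.04 against insulin (limma adjusted p = 5.5e-05 and 0.00015). Only 1 of the 3 BCL2L2 probe sets was bright. With no brightness filter the dim ones read 0.05 and 0.11 against medium, and 0.10 and 0.12 against insulin, without a call. BCL2L1, the gene of BCL-XL, was not called, at -0.12 and -0.08, and its 3 bright probe sets kept within 0.10 of each other. With spike-in centring BCL2L1 was called lower in both comparisons, at -0.52 and -0.47.

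MCL1, a short-lived survival protein, fell by 0.10 and 0.13 on its brightest probe set (adjusted p = 0.012 and 0.0029), but its 6 bright probe sets pointed both ways. Against insulin 3 of them were called lower and 1 higher, over a range from -0.32 to 0.17. The call against medium was lost without medium array 3 and without BI array 3, both at -0.08. Without cross-hybridizing probe sets MCL1 was 0.09 above medium, and on the probe set of largest variance 0.12 above insulin, neither of which passed.

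BCL2 itself rose by 0.23 ± 0.09 against medium with little margin (adjusted p = 0.046) and was 0.13 above insulin without passing. Its array values were picked after the change was seen. The BI values of 5.59, 5.54 and 5.42 overlapped both the insulin values of 5.47, 5.43 and 5.28 and the medium values of 5.18, 5.24 and 5.44. The call was lost without medium array 1 (0.17), medium array 2 (0.20), insulin array 1 or 2 (both 0.23), BI array 1 (0.19) or BI array 2 (0.22), and the value was -0.18 with spike-in centring. With no brightness filter, a dim pair of its probe sets passed in both comparisons and fell by 0.33 and 0.54 against medium, so the probe sets of BCL2 disagreed in sign.

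BCL2L13, an atypical member of the outer mitochondrial membrane, read 8.30, 8.32 and 8.29 on BI arrays, 8.82, 8.76 and 8.84 on insulin arrays and 8.83, 8.94 and 8.75 on medium arrays. The BI arrays were the lowest and closest together. BCL2L13 fell by 0.53 ± 0.05 and 0.51 ± 0.05 (limma adjusted p = 2.0e-07 and 4.9e-07). Its falls and those of HRK were the largest among the tested members that belong to the BCL2 family. Of its 5 bright probe sets 4 were called lower in both comparisons. The exception, the brightest that is not prone to cross-hybridization, read -0.05 and -0.03.

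The pore-forming proteins changed little on the probe sets that stood for their genes. BAX rose by 0.19 ± 0.06 against medium (adjusted p = 0.023) and was 0.09 above insulin without passing. The other bright BAX probe set, of a kind that can cross-hybridize, was called in both comparisons. It rose by 0.33 against medium and 0.26 against insulin (limma over all probe sets, adjusted p = 0.0025 and 0.012). The mean of the BAX probe sets was 0.18 above insulin and passed. BOK, a relative of BAX, rose by 0.26 ± 0.08 against medium (adjusted p = 0.011) and was 0.06 above insulin. Both turned negative with spike-in centring, BAX to -0.22 and -0.29 and BOK to -0.15 and -0.32. The BAX call was lost without medium array 1 (0.18), medium array 3 (0.16) or BI array 1 (0.11), and the BOK call without medium array 1 or 2 (both 0.22). BAK1 was not called, at 0.08 and 0.10, but with spike-in centring it was called lower in both comparisons, at -0.32 and -0.29.

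One probe set of BOK, picked after its values were seen, differed from the other 2 by more than the gene-level value shows. It read 6.79, 6.94 and 7.01 on BI arrays, 6.23, 6.27 and 6.22 on insulin arrays and 6.06, 6.16 and 6.07 on medium arrays. The BI arrays stood apart. It rose by 0.81 against medium and 0.68 against insulin (limma over all probe sets, adjusted p = 3.0e-07 and 2.9e-06), while the other 2 stayed between 0.05 and 0.26. It belongs to a kind that can cross-hybridize.

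Of the 6 BH3-only genes among the tested members, HRK fell, BID rose and 4 were not called. HRK, whose protein harakiri binds survival members of the BCL2 family, read 6.17, 5.75 and 6.07 on BI arrays, 6.47, 6.60 and 6.44 on insulin arrays and 6.68, 6.88 and 6.81 on medium arrays. The groups did not overlap, with BI lowest, medium highest and BI array 2 the lowest of all. HRK fell by 0.79 ± 0.09 against medium, 1.73-fold lower (limma adjusted p = 2.8e-06), and by 0.50 ± 0.09 against insulin, 1.42-fold lower (adjusted p = 0.00035). It has 1 probe set on the array, so no second one bears on it.

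BID, the BH3-only protein that caspase 8 cleaves to connect the receptor and mitochondrial routes, read 8.77, 8.66 and 8.79 on BI arrays, 8.47, 8.49 and 8.54 on insulin arrays and 8.46, 8.54 and 8.46 on medium arrays. The BI arrays were the highest, and the other groups overlapped. BID rose by 0.25 ± 0.05 and 0.24 ± 0.05 (adjusted p = 0.00042 and 0.00077) and its 4 bright probe sets agreed closely against medium, at 0.25 to 0.27, but with spike-in centring BID was at -0.15 in both comparisons. These array values were chosen after the change was seen.

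BCL2L11 (BIM), BAD, BIK and BMF ranged from -0.05 to 0.12 against medium and from 0.01 to 0.04 against insulin, and none was called. With spike-in centring each of them was called lower in both comparisons. Single probe sets, picked after their values were seen, departed from this. For BMF, 1 of 3 bright probe sets read 5.14, 5.09 and 5.31 on BI arrays, against 5.81, 5.63 and 5.67 on insulin arrays and 5.58, 5.66 and 5.54 on medium arrays. On it the BI arrays lay below all others, a fall of 0.53 against insulin (limma over all probe sets, adjusted p = 0.00015). Against medium it fell by 0.41 and was also called. The other 2 probe sets of BMF were at 0.01 and -0.0034 against insulin. The mean of the BMF probe sets against insulin was -0.17 and passed. For BCL2L11, 1 of 6 bright probe sets fell by 0.30 against insulin (adjusted p = 0.021).

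CASP9, the initiator caspase of the mitochondrial route, had the lowest adjusted p of the members that fell. It read 8.88, 8.89 and 8.86 on BI arrays, 9.53, 9.61 and 9.52 on insulin arrays and 9.64, 9.64 and 9.64 on medium arrays. Replicates were tight and the groups did not overlap. CASP9 fell by 0.76 ± 0.04 against medium, 1.70-fold lower (limma adjusted p = 1.2e-10), and by 0.68 ± 0.04 against insulin, 1.60-fold lower (adjusted p = 7.7e-10). A second bright probe set, added after its values were seen, read 7.62, 7.64 and 7.92 on BI arrays, against 7.94, 7.95 and 7.85 on insulin arrays and 7.90, 7.99 and 8.10 on medium arrays. There BI array 3 overlapped the other groups, and the differences were -0.27 (adjusted p = 0.0097) and -0.19 (adjusted p = 0.069).

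APAF1, the scaffold on which caspase 9 is activated, rose by 0.28 ± 0.09 against medium (adjusted p = 0.019), a value of -0.12 with spike-in centring, and was 0.19 above insulin without passing (adjusted p = 0.11). Its call was lost without medium array 1 (0.21) or BI array 3 (0.26). CASP2, an initiator caspase activated on the PIDDosome, rose by 0.22 ± 0.04 and 0.13 ± 0.04 (adjusted p = 0.00023 and 0.017) on both of its bright probe sets, values that became -0.19 and -0.26 with spike-in centring. Against insulin its call was lost without insulin array 3 (0.10) or BI array 2 (0.12). CASP6, an executioner caspase, was not called, at -0.0035 against medium and 0.13 against insulin (adjusted p = 0.092), a value that reached 0.17 and passed without BI array 1. With spike-in centring CASP6 was called lower in both comparisons, at -0.41 and -0.26.

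BIRC2, which encodes cIAP1, a ubiquitin ligase of the tumour necrosis factor receptor complex, read 11.13, 11.13 and 11.11 on BI arrays, 11.48, 11.53 and 11.51 on insulin arrays and 11.54, 11.53 and 11.48 on medium arrays. The BI arrays lay below all others, which overlapped. It fell by 0.39 ± 0.03 in each comparison (limma adjusted p = 1.3e-08 against medium and 2.3e-08 against insulin). All 5 of its bright probe sets were called in both comparisons, and they fell by 0.33 to 0.67 against medium and fell by 0.36 to 0.48 against insulin.

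XIAP, an inhibitor that binds caspases directly, read 9.30, 9.34 and 9.28 on BI arrays, 9.75, 9.52 and 9.62 on insulin arrays and 9.46, 9.44 and 9.44 on medium arrays. BI was lowest and insulin highest, with no overlap. XIAP fell by 0.32 ± 0.05 against insulin (adjusted p = 5.9e-05) and by 0.14 ± 0.05 against medium (adjusted p = 0.028). Its 5 bright probe sets were all below 0, and 4 were called lower against insulin and 3 against medium. The call against medium was lost without medium array 1 (-0.13), medium array 2 or 3 (both -0.14), BI array 1 (-0.14) or BI array 3 (-0.13).

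DIABLO, the mitochondrial protein that relieves inhibition by XIAP, had the smallest change of any member called, at -0.09 against medium and -0.10 against insulin (adjusted p = 0.036 and 0.031), on 1 probe set. Both calls were lost without BI array 1 (-0.10 and -0.10) or BI array 2 (-0.07 and -0.08). The call against medium was also lost without medium array 1 or 2 (both -0.09), and that against insulin without insulin array 2 (-0.09) or insulin array 3 (-0.10). The array values of BCL2L13, BIRC2 and XIAP were chosen after the changes were seen.

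Of the inflammatory caspases, CASP4, the sensor of intracellular lipopolysaccharide, read 9.15, 9.08 and 9.13 on BI arrays, 9.55, 9.45 and 9.58 on insulin arrays and 9.68, 9.64 and 9.51 on medium arrays, values given after the change was seen. Each BI array lay below each of the others. It fell by 0.49 ± 0.05 and 0.41 ± 0.05 (limma adjusted p = 3.9e-07 and 4.6e-06), on all 6 of its bright probe sets.

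CASP1, which processes interleukin 1 beta, read 5.31, 5.23 and 5.14 on BI arrays, 4.76, 4.51 and 4.96 on insulin arrays and 4.43, 4.61 and 4.13 on medium arrays. The BI arrays were the highest, and the insulin and medium arrays overlapped. CASP1 was 0.84 ± 0.13 above medium, 1.79-fold (adjusted p = 3.4e-05), and 0.49 ± 0.13 above insulin, 1.40-fold (adjusted p = 0.0049). Since it passed the brightness filter only through the BI arrays, a difference was built into its entry, and these values are a description. With spike-in centring the difference from insulin was 0.10 and short of the threshold, while that against medium was 0.44 and passed. The other 8 probe sets of CASP1 were all dim.

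**Figure D3:**
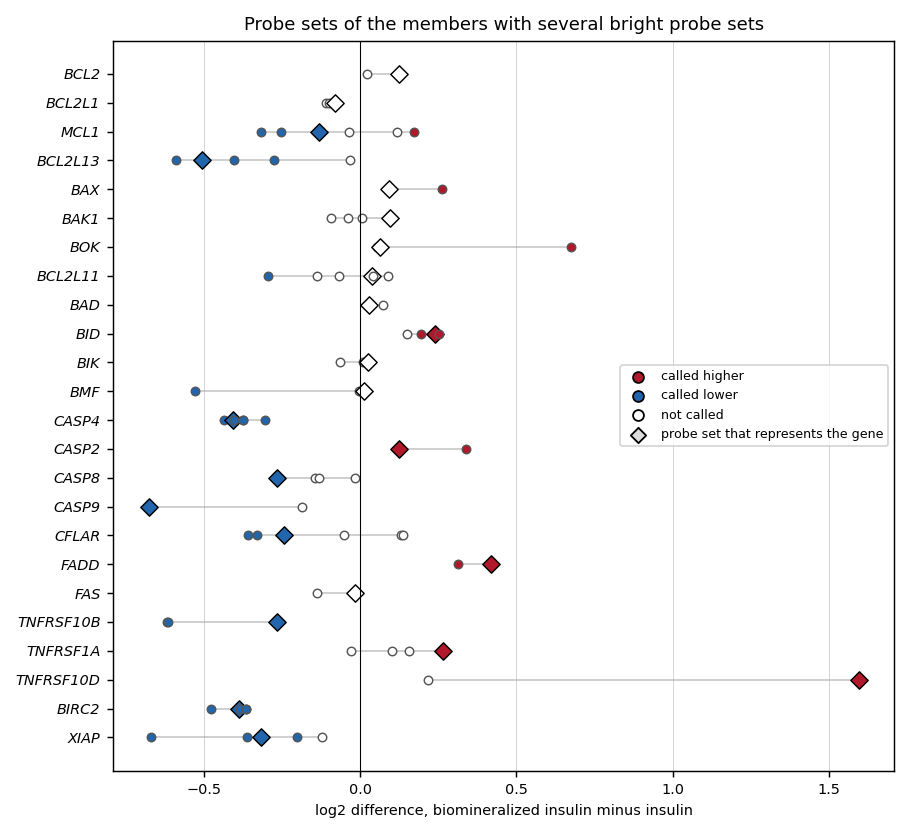
Log2 difference of BI minus insulin for every bright probe set of the 24 members that have several, with the probe set that represents the gene drawn as a diamond and filled points passing an adjusted p of 0.05 (limma over all probe sets). The gap within TNFRSF10D, 0.22 to 1.60, is the widest, BIRC2 and CASP4 lie wholly below 0, and MCL1 has called probe sets on both sides.

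Taken by probe set, 51 of the 95 bright ones of the members were called against medium (53.7%, where 45.9% of all probe sets were), 17 higher and 34 lower, and 49 against insulin (51.6%, where 38.6% were), 14 higher and 35 lower. Members with many probe sets weigh more in these counts. With spike-in centring they were 79 against medium, 3 higher and 76 lower, and 77 against insulin, 2 higher and 75 lower. By gene, that scale called 76.7% of all genes against medium and 78.5% against insulin. The shares of all probe sets on it are not given here. Among the members with several, every bright probe set was called higher against medium for BAX, BID, CASP2 and FADD, and lower for BIRC2, CASP4, CASP9 and TNFRSF10B.

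Promoter windows from RefSeq (GRCh38.p14) are shown for HRK, CASP9 and BIRC2. Among the tested members, these are the BH3-only gene, the caspase and the inhibitor of apoptosis gene with the largest falls. Windows run from 250 bases before the annotated start to 50 after it, on the gene's strand, and capitals mark matches to 6 motifs searched on both strands. In the window of HRK, capitals are 1 ATF4-CHOP composite element and 2 GC boxes, in that of CASP9 8 GC boxes, some overlapping, and in that of BIRC2 1 cyclic AMP response element and 1 GC box. They lie at chr12:116881392-116881691 (minus strand), chr1:15524166-15524465 (minus strand) and chr11:102346964-102347263 (plus strand).
HRK: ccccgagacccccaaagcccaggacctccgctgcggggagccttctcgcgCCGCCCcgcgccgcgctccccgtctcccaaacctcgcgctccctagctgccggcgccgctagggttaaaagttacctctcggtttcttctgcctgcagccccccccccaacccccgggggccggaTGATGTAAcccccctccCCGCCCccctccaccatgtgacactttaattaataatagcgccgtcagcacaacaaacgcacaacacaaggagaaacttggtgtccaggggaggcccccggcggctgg
CASP9: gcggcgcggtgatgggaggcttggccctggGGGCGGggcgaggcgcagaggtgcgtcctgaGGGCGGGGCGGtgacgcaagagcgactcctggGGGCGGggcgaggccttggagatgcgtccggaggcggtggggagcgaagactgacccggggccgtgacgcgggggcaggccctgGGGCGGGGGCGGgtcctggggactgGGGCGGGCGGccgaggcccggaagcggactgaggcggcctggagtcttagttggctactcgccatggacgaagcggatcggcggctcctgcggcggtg
BIRC2: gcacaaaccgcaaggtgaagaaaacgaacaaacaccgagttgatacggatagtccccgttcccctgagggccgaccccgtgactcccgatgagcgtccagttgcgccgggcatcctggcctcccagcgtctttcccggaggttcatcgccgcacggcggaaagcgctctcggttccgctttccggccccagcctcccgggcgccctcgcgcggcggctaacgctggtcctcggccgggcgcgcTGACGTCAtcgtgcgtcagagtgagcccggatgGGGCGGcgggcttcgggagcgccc

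Windows were found for 27 of the 37 members, 51 windows in all. The ATF4-CHOP composite element (TGATGNAA), which a stress-activated pair of transcription factors binds, begins 75 bases before the start of HRK. It was in 2 of the 51 member windows (3.92%), of HRK and BCL2A1, and in 3.62% of 35116 windows of all genes. The cyclic AMP response element (TGACGTCA) begins 7 bases before the start of BIRC2. It was in 2 member windows (3.92%), of BIRC2 alone, and in 1.848% of all windows. The heat shock element core (GAANNTTC) was in 5 member windows (9.80%), of CFLAR, CASP8, BAK1, CASP2 and BMF, against 6.77% of all. The E-box (CACGTG) was in 4 member windows (7.84%) against 7.26% of all, and the CCAAT box (CCAAT) in 15 (29.4%) against 34.6%. The GC box (GGGCGG) was in 36 (70.6%) against 44.95%. A match to these letters is not a bound site.

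Soluble insulin left the members without a call. In insulin against medium 0 of 33 members passed in limma, where 2.45% of all genes did, 1.25% higher and 1.2% lower. At an unadjusted p under 0.05 there were 10 of the 33 members, a larger share than the 15.8% of all genes. Changes ranged from -0.29 (HRK) to 0.35 (CASP1), with a median of 0.01 for the members and for all genes. The median size of change was 0.08, beside 0.06 for all genes.

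TNFRSF10B came closest to the threshold, at -0.13 ± 0.03 (limma adjusted p = 0.054), followed by XIAP at 0.18 (adjusted p = 0.070), TNFRSF12A at -0.13 (adjusted p = 0.095) and HRK at -0.29 (adjusted p = 0.13). For each of these genes the insulin arrays lay wholly to one side of the medium arrays. The count was 1 after quantile normalization (XIAP), 1 with the dimmest 60 percent left out (TNFRSF10B), 3 with array weights (TNFRSF10B, HRK and XIAP) and 1 without insulin array 2 (XIAP, at 0.24). Actin probes at the 3' end minus those at the 5' end, a sign of RNA quality, averaged 3.19 on insulin arrays and 3.02 on medium arrays, and its part in these values was not tested. Of the members' 95 bright probe sets, 0 were called in limma, and 18 had an unadjusted p under 0.05. By gene, 2.45% of all genes were called and 15.8% had an unadjusted p under 0.05. The shares of all probe sets are not given here. The number of member probe sets called was 1 with no brightness filter, the dim TNFSF10 probe set described above.

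Other genes of the same pathways also responded to BI. Of 65 other genes of apoptosis and related death pathways, 52 were tested. Against insulin 20 rose and 13 fell, 63.5% in all where 44.4% of all genes were called, with a median of 0.07 beside 0.02. Against medium 21 rose and 14 fell, 67.3% where 50.9% were called, with a median of 0.09 beside 0.02. With spike-in centring, 78.5% of all genes were called against insulin and 76.7% against medium. On that scale, 2 of the 52 were higher and 36 lower against insulin, and 2 were higher and 34 lower against medium.

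PMAIP1, whose protein NOXA is a BH3-only partner of MCL1, fell further than any member. It read 7.77, 7.67 and 7.82 on BI arrays, 9.79, 9.85 and 9.65 on insulin arrays and 9.79, 9.83 and 9.77 on medium arrays. The BI arrays stood far below the other 6, at 4.02-fold lower than insulin (-2.01 ± 0.05, limma adjusted p = 5.5e-14). BBC3, which encodes PUMA, another BH3-only protein, fell by 0.57 ± 0.11 against insulin (adjusted p = 0.00047) and by 0.35 against medium. Its BI values of 7.82, 7.42 and 7.28 overlapped the medium values of 7.77, 7.94 and 7.86. BBC3 was 0.22 higher in insulin than in medium, without a call.

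The other large falls against insulin were CYLD, a deubiquitinase of the tumour necrosis factor receptor pathway, by 0.59, and PDCD4, an inhibitor of translation, by 0.57. The largest rises were BAG1, a chaperone cofactor that binds BCL2, by 0.70 ± 0.04 (limma adjusted p = 2.0e-10), TNFRSF21, the death receptor DR6, by 0.62, MLKL, the effector of necroptosis, by 0.61, and TRAF3, an adaptor of receptors of this family, by 0.56. With spike-in centring BAG1 at 0.32 and TNFRSF21 at 0.23 still passed, while MLKL at 0.22 and TRAF3 at 0.17 did not. In insulin against medium 1 of the 52 was called (1.92%), where 2.45% of all genes were. An unadjusted p under 0.05 was seen for 11 of the 52, a larger share than the 15.8% of all genes. The called gene was VDAC1, a channel of the outer mitochondrial membrane, higher by 0.22 (limma adjusted p = 0.017). With spike-in centring VDAC1 was at 0.20 without a call. The number called was 0 without medium array 2 or insulin array 3.

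**Figure D4:**
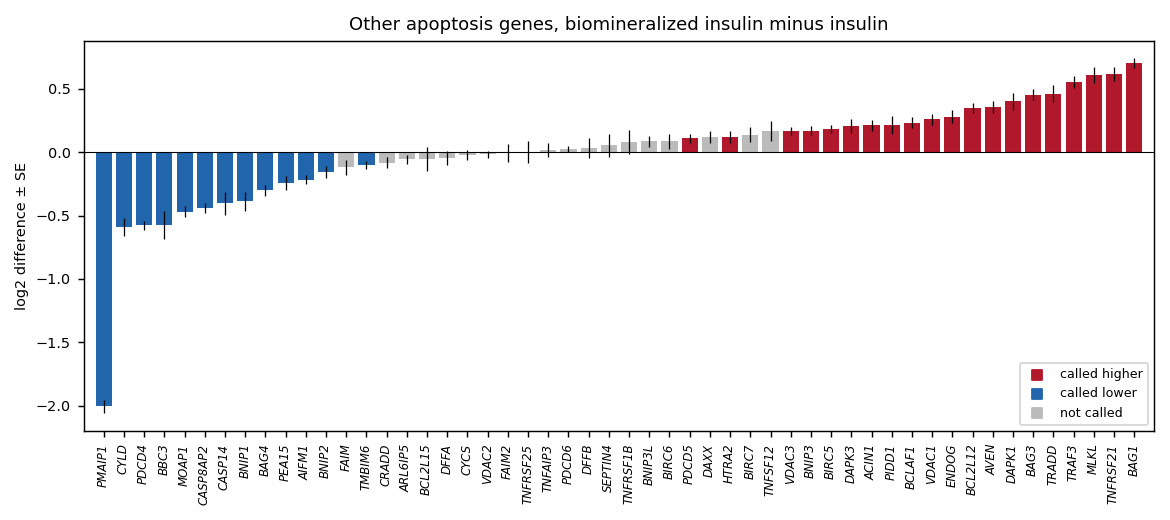
Log2 difference of BI minus insulin with its standard error (bars from 0) for the 52 other apoptosis genes tested, coloured by whether the gene passed an adjusted p of 0.05 (limma). PMAIP1 at -2.01 is the one gene beyond -1, and BAG1 has the highest bar at 0.70.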

How the data were processed

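Messenger RNA was measured in 3 groups of 3 one-colour arrays. The deposited values are log2 expression per probe set, judging by values between 2.02 and 14.3 and by nearly equal array medians. The authors' summarisation and normalization are not given in the sources used here, and no detection calls were used. Sample titles gave the groups and replicate numbers. Of 49395 probe sets, 44988 had 1 gene symbol, 1832 several, 2473 none listed and 102 were control features. Symbols of 44961 probe sets were brought up to date by Entrez identifier from the GRCh38.p14 RefSeq table.

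The probe set of highest mean stood for its gene, after removal of the dimmest 40 percent (mean below 4.74). Group means were fitted over all 9 arrays with limma 3.58.1 under R 4.3.3 (eBayes with trend, no replicate term, residual degrees of freedom 6). A call means an adjusted p under 0.05 (Benjamini-Hochberg over 12239 genes). Probe sets with names ending in _s_at or _x_at are spoken of as prone to cross-hybridization. A second fit took all 29573 bright probe sets, and one more all probe sets with no filter. The procedure was tested on simulated data. Same-numbered arrays did not deviate together (correlations from -0.23 to 0.17), so numbers were not taken to pair arrays. Some of the other apoptosis genes are not reported here.

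Array values are given for every TNFRSF10D probe set and for members called with at least a 1.5-fold change, others being marked where they were chosen after their values were seen. Of the other apoptosis genes, the 4 largest rises and 4 largest falls in BI against insulin are named. The members, the lists and these rules were chosen with earlier results of these data known. Alternatives covered the replicate block, the arrays fitted, normalization, spike-in centring, the brightness filter, the variance model, array weights, thresholds, the choice of probe set and leaving out each array. The number of arrays limits the precision. Promoter windows came from RefSeq, and figures were drawn with matplotlib 3.10.9.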

Additional observations from a re-analysis of the deposited data

How the results depend on the processing

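Across the alternatives run, the counts of members called with BI stayed within 1.5 times of those reported except at a threshold of 1.5-fold, where they were 4 against medium and 2 against insulin. At that threshold the other apoptosis genes gave 6 and 5, and the members' probe sets 9 and 7. Leaving out 1 array gave 16 to 22 members against medium and 17 to 19 against insulin, 30 to 35 and 30 to 33 other apoptosis genes, and 45 to 52 and 38 to 48 probe sets. With the replicate number as a replicate block, members called were 20 and 19, other genes 35 and 33, and probe sets 51 and 46. In insulin against medium the block gave 0 members, 1 other gene and 0 probe sets.

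Insulin against medium gave few calls under any setting run. Members called were 1 after quantile normalization, 1 with the dimmest 60 percent left out, 3 with array weights and 0 to 1 leaving out an array. Probe sets called were 1 with no brightness filter, 1 with the dimmest 20 percent left out, 1 with array weights and 0 to 1 leaving out an array. The 1 other gene became 0 with only the 6 arrays compared, spike-in centring, no intensity trend, an adjusted p of 0.01, a 1.5-fold threshold or no cross-hybridizing probe sets, 2 with quantile normalization or array weights, and 0 to 1 leaving out an array.

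Spike-in centring gave 79 called member probe sets against medium and 77 against insulin, on a scale that called 76.7% and 78.5% of all genes. It turned the sign of 14 members against medium: BCL2 to -0.18, BAX to -0.22, BAK1 to -0.32, BOK to -0.15, BCL2L11 to -0.29, BAD to -0.36, BID to -0.15, BIK to -0.31, CASP2 to -0.19, FADD to -0.019, FAS to -0.30, TNFRSF10A to -0.26, TNFRSF1A to -0.11 and APAF1 to -0.12. Against insulin it turned BCL2 to -0.26, BAX to -0.29, BAK1 to -0.29, BOK to -0.32, BCL2L11 to -0.35, BAD to -0.36, BID to -0.15, BIK to -0.36, BMF to -0.37, CASP2 to -0.26, CASP6 to -0.26, TNFRSF10A to -0.19, TNFRSF1A to -0.12, TNFRSF12A to -0.30 and APAF1 to -0.19. By its construction this setting subtracts the brighter spike-in signal of the BI arrays from every gene.

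Without cross-hybridizing probe sets MCL1 was at 0.094 against medium, and TNFRSF1A was at -0.065 against medium and -0.028 against insulin. On the probe set of largest variance MCL1 was at 0.12, BCL2L11 at -0.30 and BMF at -0.53 against insulin, and the mean of the probe sets put BMF at -0.17. The values of BCL2L11 and BMF passed. In these settings another probe set stands for the gene. Over the tested members and all settings, 709 values against medium kept their direction and side of the threshold, 12 changed sign without a call in either setting, 71 lost a call, 10 gained one and 16 changed sign with a call in at least 1 setting. Against insulin these were 735, 16, 38, 11 and 18. In insulin against medium 771 kept both, 41 changed sign without a call and 6 gained a call. Dim genes are limited by signal near background, and 3 arrays a group limit changes of the size seen with soluble insulin.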
